A study of Mus musculus with 768 samples.

Results

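Cells from mouse cochlear organoids on culture day 3 were compared between those that carried transcripts of dividing cells and those that did not. A cell was called cycling when at least 1 read fell on 3 or more of 6 proliferation genes, namely Mki67, Top2a, Cdk1, Tpx2, Birc5 and Ccnb2. It was called non-cycling when 0 or 1 of them had a read. Day 3 made up 33.2% of the cells of the series, and 89.4% of its cells were kept by limits of 50000 reads, 1500 detected genes and 20% mitochondrial reads. Of 85, 70 and 73 kept cells in cultures 1, 2 and 3, 65, 45 and 42 were cycling and 13, 19 and 25 were non-cycling. Cycling cells were 21.4% and non-cycling cells 8.02% of all kept cells of the series, and 19 day 3 cells with reads on 2 of the 6 genes were left out of both sides.

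All cells came from animals with the alleles Fgfr3-CreERT2, Ai14-tdTomato and Sox2-GFP, so both sides share the same genotype. Cells of the greater epithelial ridge (GER) had been sorted from the cochlea on postnatal day 2. The culture medium held the growth factors IGF1, EGF and FGF2, valproic acid, the GSK3 inhibitor CHIR99021, a stable form of vitamin C and an inhibitor of the TGFβ receptor, and it was the same in every culture. Single cells were drawn by hand into a glass pipette after trypsin treatment, and each was made into a SmartSeq2 library, which reads full-length cDNA without molecular identifiers. The 3 day 3 replicates of the labels were taken as 3 cultures. The labels do not say whether they came from separate animals, so p-values measure only the spread between these 3 cultures.

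The GER is the epithelium on the inner side of the developing organ of Corti, and its cells secrete proteins of the tectorial membrane, the gel sheet that touches the hair bundles. Cells that divide copy their DNA in S phase, with many S phase genes under E2F transcription factors. They then switch on a mitotic programme, which includes the cyclin B genes, the mitotic kinases and the motor proteins of the spindle.

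The share of cycling cells was 76.5% in culture 1 (exact 95% Clopper-Pearson interval 66 to 85%), 64.3% in culture 2 (51.9 to 75.4%) and 57.5% in culture 3 (45.4 to 69%). The mean was 66.1% ± 9.60 (SD, n = 3), against 23.9% ± 7.92 (n = 3) on day 1 and 61.5% ± 24.5 (n = 5) on day 7. Intervals cover counting error only. In 77 cells all 6 genes had a read and in 34 cells none had, so that the ends of the scale were the fullest classes. The median of the summed level of the 6 genes was 31.8 CPM (counts per 1000000 reads) in the 23 cells with 1 gene read, 80.8 CPM in the 19 cells with 2 and 224.6 CPM in the 22 cells with 3. The sides were chosen by the reads of these 6 genes in the same cells, so these values carry no test.

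**Figure D1:**
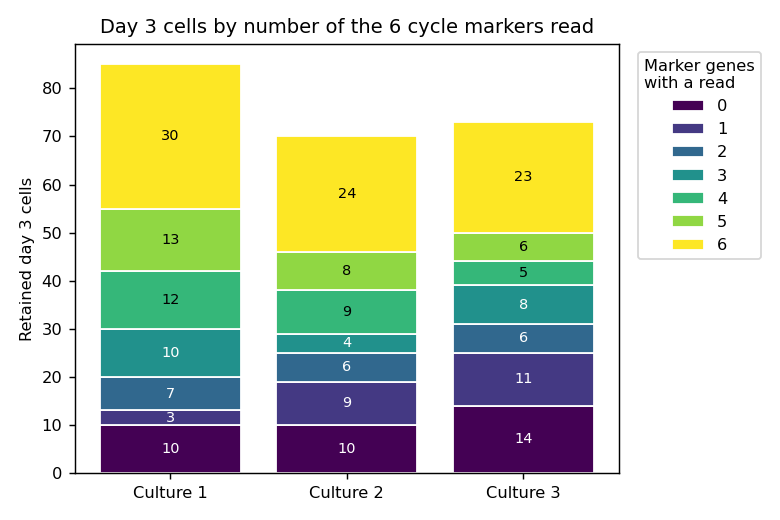
Number of retained day 3 cells (vertical axis) in each of the 3 cultures, stacked by how many of the 6 proliferation genes had a read; numbers in the bars are cells. Cells with all 6 genes read are the largest class in every culture (30, 24 and 23 cells), and cells with 2 genes read, which were left out, number 7, 6 and 6.

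The reads of the cells on each side were summed within each culture, which gave 6 sums of 8403988 to 47459692 reads. Depth per cell was alike, with a mean of the culture medians of 772346 ± 21929 reads in cycling and 794353 ± 109629 in non-cycling cells (n = 3; exact two-sided sign permutation test, p = 0.75). At a common depth of 200000 reads, 6300.5 ± 257.8 and 5853 ± 488.2 genes had a read (p = 0.5 by the same exact test). The smallest p that 3 paired cultures allow is 0.25. The ERCC spike-in sequences held 47 reads over all cells of the series, so the amount of RNA per cell could not be read from them, and all levels are relative to the reads of the same sum.

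Epcam or Cdh1, markers of epithelium, had a read in every cycling cell and in 56 of 57 non-cycling cells. In culture 3, 2 non-cycling cells went against the GER label. Each had reads in 7 of 9 mesenchyme markers (the listed markers other than Lum), no read of Tecta, Dcn or Lum and at most 1 read of Epcam, whereas no cycling cell had reads in more than 3 of the 9. With these 2 cells 1.58% of genes were called higher and 0.719% lower in cycling cells, and without them 1.59 and 0.752%. Reads of tdTomato, the Cre reporter, were found in 23.1, 24.4 and 14.3% of the cycling and 38.5, 31.6 and 40% of the non-cycling cells of cultures 1, 2 and 3 (means 20.6% ± 5.51 and 36.7% ± 4.48, n = 3; lower in 3 of 3 cultures, exact sign permutation p = 0.25). The labels do not say whether Cre had been induced. A read of eGFP was found in means of 90.8 and 91.3% of the cells.

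The paired comparison tested 14051 genes with edgeR's quasi-likelihood test, with the culture as a block. At a Benjamini-Hochberg adjusted p under 0.05, 2.3% of the genes were called, 1.58% higher and 0.719% lower in cycling cells. By unadjusted p under 0.05, 1238 genes were higher and 883 lower, and DESeq2 called 6.16% higher and 4.6% lower. Among the higher genes were 5 of the 6 sorting genes, 95 genes of a list for G2 and mitosis and 61 genes of a list for DNA replication and S phase. The calls of the sorting genes follow from how the sides were chosen and are no result, although the shares above include them. Outside these lists, 61 of 13734 genes were higher (0.444%) and 0.735% were lower. The number of calls rested on single cultures. Without culture 1, 91 genes were lower and 27 genes outside the lists higher. Without culture 2 these counts were 19 and 4, and without culture 3 they were 9 and 9. In each of these fits every gene called outside the lists with all cultures kept its direction, and the median log2 fold change of the lower genes lay between -1.28 and -1.14, against -1.21 with all cultures. The genes were chosen by the fit with all cultures, which shares its cells with these fits, so their direction here is no independent check. Without the cells that carried a tdTomato read, 0 of 60 higher and 3 of 100 lower genes outside the lists that could be tested stayed called, while 60 and 99 kept their direction. The 3 were Sparc, S100a1 and Tpp1, a lysosomal peptidase gene named after its value was seen. Of the other genes outside the lists described below as called, those tested lost their call in that fit.

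**Figure D2:**
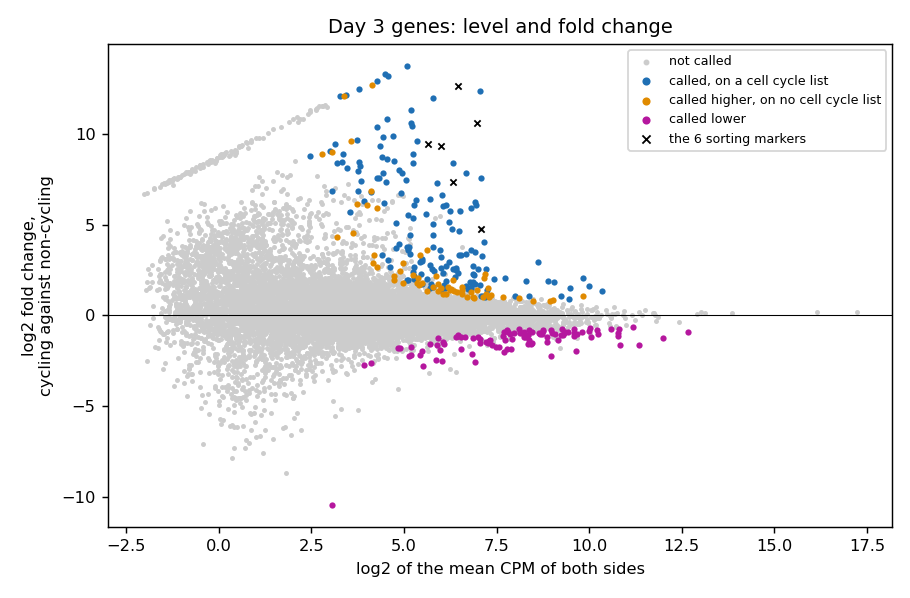
Each of the 14051 tested genes by the log2 of its mean CPM over both sides (horizontal) and its fitted log2 fold change, cycling against non-cycling, on day 3 (vertical). Called genes on the cell cycle lists and the 6 sorting genes reach the highest fold changes, the called lower genes lie mainly among well expressed genes, and the straight band at the upper left holds genes with no read in non-cycling cells, whose fitted values depend on the prior count.

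The genes of cell division moved with the genes that defined the sides. They are not independent of the rule and are given as a description. Of the tested genes of G2 and mitosis, 95 (53.98%) were called higher, and all but 3 had a fold change above 0. Ccnb1, the cyclin that activates Cdk1 at the entry into mitosis, was at 212.7, 307.6 and 279.1 CPM in the cycling sums of cultures 1, 2 and 3, while the non-cycling sums together held 2 reads. Kif22, a chromosome-arm motor, was at 68.7, 143.9 and 115.4 CPM, against 1 read. Of the genes of DNA replication and S phase, 61 (44.9%) were called higher, and all but 1 had a fold change above 0, with a median log2 fold change of 2.60. Uhrf1, which carries DNA methylation over to new strands, was at 210.6, 169.5 and 245.9 CPM in cycling and 15.7, 16.4 and 19.8 CPM in non-cycling cells. Mcm6, a subunit of the replicative helicase, was at 286.7, 209.6 and 256.6 CPM against 52.8, 32.9 and 46.7 CPM. Reads of these S phase genes were thus found in cells sorted as non-cycling, whereas the mitotic genes named here were at or near 0 there. The contrast cannot compare the phases, because the sides were sorted by genes that move with the mitotic genes. The named genes also had the smallest p of their lists. Among the sorting genes, Cdk1 was at 0, 18.3 and 26.4 unscaled CPM in the non-cycling sums (a read in 11 of 57 cells). The others were at most 4.99 CPM there. Whether non-cycling cells included cells in G1 or S phase was not tested.

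Promoter windows of 1 sorting gene, Ccnb2, and of 1 called S phase gene, Mcm6, are shown, with every match of the searched motifs on either strand in capitals. The Ccnb2 window shows the letters that were searched, but it is not among the G2 and mitosis windows counted below. The windows are from RefSeq (GRCm38.p6), run from 250 bases before to 50 after the annotated start, and are written 5′ to 3′ on the strand of the gene. In Ccnb2 (cyclin B2, chr9:70421505-70421804, minus strand) capitals mark TTTGAA, the core of the cell cycle homology region of mitotic genes, and CCAAT, the site of the factor NF-Y. In Mcm6 (chr1:128359656-128359955, minus strand) they mark TTTGGCGC, an E2F-type motif, and ATTGG, which reads CCAAT on the opposite strand.
Ccnb2: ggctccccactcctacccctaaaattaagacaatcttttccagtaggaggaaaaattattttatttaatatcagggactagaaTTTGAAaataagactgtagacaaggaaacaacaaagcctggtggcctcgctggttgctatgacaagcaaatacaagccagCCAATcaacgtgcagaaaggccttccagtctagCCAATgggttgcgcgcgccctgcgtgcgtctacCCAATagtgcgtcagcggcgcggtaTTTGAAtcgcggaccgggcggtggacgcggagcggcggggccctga
Mcm6: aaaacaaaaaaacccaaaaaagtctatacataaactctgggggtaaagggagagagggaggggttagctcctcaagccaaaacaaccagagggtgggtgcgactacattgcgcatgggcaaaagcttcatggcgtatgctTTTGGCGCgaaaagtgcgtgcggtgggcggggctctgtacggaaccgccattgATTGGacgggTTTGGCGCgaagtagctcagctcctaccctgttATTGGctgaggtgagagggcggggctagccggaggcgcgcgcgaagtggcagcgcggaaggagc
TTTGAA was found in 50.0% of the 84 windows of the called G2 and mitosis genes and in 17.2% of the 58 windows of the called S phase genes, against 11.8% of the 12903 windows of all tested genes. CCAAT was found in 70.2, 60.3 and 37.8% in the same order. TTTCCCGC or TTTGGCGC was found in 4.76, 22.4 and 2.83%. A match is a match of letters only. The window of Ccnb1, a mitotic cyclin gene among the called G2 and mitosis genes, holds no TTTGAA.

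The 10 highest genes outside the lists, by fold change among well detected named genes, included genes of DNA repair, chromosome structure and replication that the lists had not held. Ankle1, a nuclease, was at 14.5, 31.997 and 16.1 CPM in cycling sums and had 0 reads in non-cycling sums. It had a read in 43.4% of the cycling cells, and the size of its fold change cannot be given. Cdca5, which encodes sororin, the protector of sister chromatid cohesion, was at 55.8, 101.7 and 76.4 CPM against 4.61, 9.92 and 9.2 CPM (log2 fold change 3.33, SE 0.28, adjusted p = 0.00556). Chek2, a DNA damage kinase, was at 26.4, 38.6 and 35.4 CPM against 2.3, 3.24 and 4.6 CPM (3.34, SE 0.44, adjusted p = 0.0204). The sides did not overlap for any of these genes. Ankle1 lost its call under 7, Chek2 under 4 and Cdca5 under 1 of 19 alternatives. For Ankle1 and Chek2 these included the fits without culture 2 or 3. For Cdca5 it was the fit without tdTomato-positive cells. Ercc6l, Hist2h3c2, Eme1, Traip, Wdhd1, Vrk1 and Nmral1 completed the 10, with mean levels of 23.5 to 88.2 CPM in cycling and at most 9.83 CPM in non-cycling cells. Of these, Wdhd1 was closest to the limit (edgeR adjusted p = 0.0499) and lost its call under 10 of 19 alternatives. The others lost theirs under 3 to 6.

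Rcc1 and Alyref, named after their values were seen, were also called higher. Rcc1, which loads Ran with GTP on chromatin, was at 62.8, 55.4 and 67.7 CPM in cycling and 12.4, 13.4 and 13.6 CPM in non-cycling cells (log2 fold change 2.23, SE 0.28, adjusted p = 0.0167). Alyref, an mRNA export adaptor, was at 117.2, 95.3 and 137.3 CPM against 40.99, 41.02 and 55.8 CPM (1.34, SE 0.20, adjusted p = 0.0274). The list of ribosome biogenesis and nucleotide synthesis had 2 called genes of 40, both higher, against 1.58% of all genes called higher (22 higher and 0 lower by unadjusted p; 13 and 0 by DESeq2). Umps, which makes UMP, was at 127.7, 162.6 and 133.8 CPM against 48.8, 49.95 and 42.3 CPM (1.58, SE 0.19, adjusted p = 0.0163), and Paics, a purine synthesis enzyme, was at 367.001, 332.1 and 400.5 CPM against 174.1, 174.2 and 214.96 CPM (0.97, SE 0.14, adjusted p = 0.0264). Rcc1, Alyref and Paics were not called without culture 1, 2 or 3, and Umps was not called without culture 2 or 3. In all, 39 of the 40 genes of the list had a fold change above 0, with a median of 0.66, while 8030 of all 14051 genes did, with a median of 0.13. No gene of the cytosolic ribosomal proteins was called by edgeR (3 higher and 0 lower by unadjusted p under 0.05; 1 and 0 by DESeq2), and their median was 0.03.

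The ligand gene Bmp7, active in the developing cochlea, was singled out among the higher genes after its values were seen. It was at 184.03, 118.7 and 167.4 CPM in cycling and 93.7, 62.6 and 83.2 CPM in non-cycling cells (log2 fold change 0.97, SE 0.17, adjusted p = 0.0457). The 3 cycling sums were above the 3 non-cycling sums. Its call was lost under 10 of 19 alternatives, among them the fits without culture 1, 2 or 3 and without tdTomato-positive cells. In the day 7 cultures described below, Bmp7 was at 0.14 (SE 0.13, edgeR adjusted p = 0.716). The difference between the days was not called by edgeR (unadjusted p = 0.00301).

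Regulators of the G1 phase gave few calls. None of the 11 G1 cyclin and Myc family genes was called by edgeR (2 higher and 1 lower by unadjusted p under 0.05; 1 and 1 by DESeq2). Ccnd1, the cyclin D1 gene and a Wnt target, was at 1129, 945 and 1098 CPM in cycling and 593.6, 795 and 747.1 CPM in non-cycling cells, with no overlap (log2 fold change 0.58, SE 0.16, adjusted p = 0.154). Myc was at 31.6, 9.38 and 1.83 CPM against 56.5, 58.5 and 10.2 CPM (-1.99, SE 0.47, adjusted p = 0.103). Among 25 cyclin-dependent kinase inhibitor and arrest genes, 1 was called lower and 0 higher (3 lower and 1 higher by unadjusted p; 2 and 1 by DESeq2), against 0.719% of all genes called lower. The called gene was Klf6, a growth-restraining zinc finger factor, at 257.2, 232.8 and 135.4 CPM against 496.8, 517.96 and 320.4 CPM (-1.12, SE 0.14, adjusted p = 0.0178). A fold change above 0 was found in 15 of the 25, with a median log2 of 0.18, against 0.13 over all genes. Cdkn2c was at 4.53, 13.7 and 15.02 CPM in cycling sums and had 0 reads in non-cycling sums. edgeR did not call it (adjusted p = 0.0756), but 7 of 19 alternatives did. Cdkn1a, which encodes p21, had a log2 fold change of -0.02, SE 0.17, adjusted p = 0.98, Cdkn1b, which encodes p27, of -0.57, SE 0.27, adjusted p = 0.404 and Cdkn1c of -0.12, SE 0.27, adjusted p = 0.883. Mxd4, a partner of Max that represses Myc targets, was called lower at 17.5, 13.9 and 8.85 CPM against 65.9, 46.5 and 65.6 CPM (-2.18, SE 0.35, adjusted p = 0.0368). Klf6 was not called without culture 2 or 3 and was at -0.65 (adjusted p = 0.373) without tdTomato-positive cells, and Mxd4 was not called without culture 1, 2 or 3.

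Of 22 tested genes of the GER and of the tectorial membrane, 8 were called lower in cycling cells and 0 higher (15 lower and 1 higher by unadjusted p; 14 and 0 by DESeq2), against 0.719% of all genes called lower. A fold change above 0 was found in 4 of the 22. The median log2 fold change of the list was -0.81, and -0.81, -0.79 and -0.81 as ratios within cultures 1, 2 and 3, against 0.13 over all genes. Tectb, which encodes β-tectorin (chr19:55180733-55196313), was at 1170, 4483 and 1834 CPM in cycling and 2732, 8360 and 6005 CPM in non-cycling cells (-1.28, SE 0.17, adjusted p = 0.0204). Its level varied more between cultures than between sides, and within each culture the cycling sum was the lower one. Tecta, which encodes α-tectorin (chr9:42329619-42399929), was at 1447, 1097 and 914 CPM against 2543, 1676 and 1572 CPM (-0.74, SE 0.11, adjusted p = 0.0331). Dcn, which encodes the matrix proteoglycan decorin (chr10:97479609-97518143), had the largest fall of the called genes of the list, with 370.2, 384.5 and 234.8 CPM against 1395, 1503 and 916 CPM (-1.95, SE 0.12, adjusted p = 0.00299). The other called genes were Ctgf, Cst3, Clu, Otog and Fkbp9, with log2 fold changes of -1.22 to -0.67. Tectb lost its call without the culture block (adjusted p = 0.485) and without culture 3 (0.139). Tecta lost it without the block (0.335) and without culture 1 (0.0532), 2 (0.12) or 3 (0.293). Without cells that carry a tdTomato read, Tectb was at -0.85, Tecta at -0.55, Ctgf at -0.67 and Dcn at -1.71 (adjusted p = 0.0502), and none of the 8 was called.

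Supporting cell genes were called in 2 of 22 cases, both lower (5 lower and 1 higher by unadjusted p and by DESeq2), against 0.719% of all genes called lower, with a median of -0.15. S100a1, a calcium-binding protein gene of supporting cells (chr3:90511034-90514392), was at 75.8, 268.003 and 159.2 CPM in cycling and 326.98, 1430 and 759.7 CPM in non-cycling cells (log2 fold change -2.26, SE 0.14, adjusted p = 0.00299). At 200000 reads it had a read in 80.7% of the cycling and 92.5% of the non-cycling cells. Its mean level was 167.7 against 838.8 CPM, a larger fall than that of the share of cells with a read. Levels within only the cells that had a read were not compared. Slc1a3, the glutamate and aspartate transporter of inner supporting cells, was at 78.9, 59.6 and 66.98 CPM against 209.2, 151.4 and 234.8 CPM (-1.52, SE 0.19, adjusted p = 0.0163). It was at -0.71 (adjusted p = 0.677) without tdTomato-positive cells, and was not called without culture 2 (0.0543) or 3 (0.0957). Sox2, the prosensory factor behind the GFP reporter, had a log2 fold change of -0.46, SE 0.45, adjusted p = 0.703, Lgr5 of -0.73, SE 0.38, adjusted p = 0.459 and Fgfr3 of -0.32, SE 1.88, adjusted p = 0.963, the last with at most 6.15 CPM in any sum. None of 18 hair cell genes was called by edgeR (4 higher and 0 lower by unadjusted p and by DESeq2). Cells with reads in 2 or more of the hair cell genes Pvalb, Myo7a, Gfi1, Pou4f3 and Atoh1 numbered 8 among cycling and 2 among non-cycling cells.

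**Figure D3:**
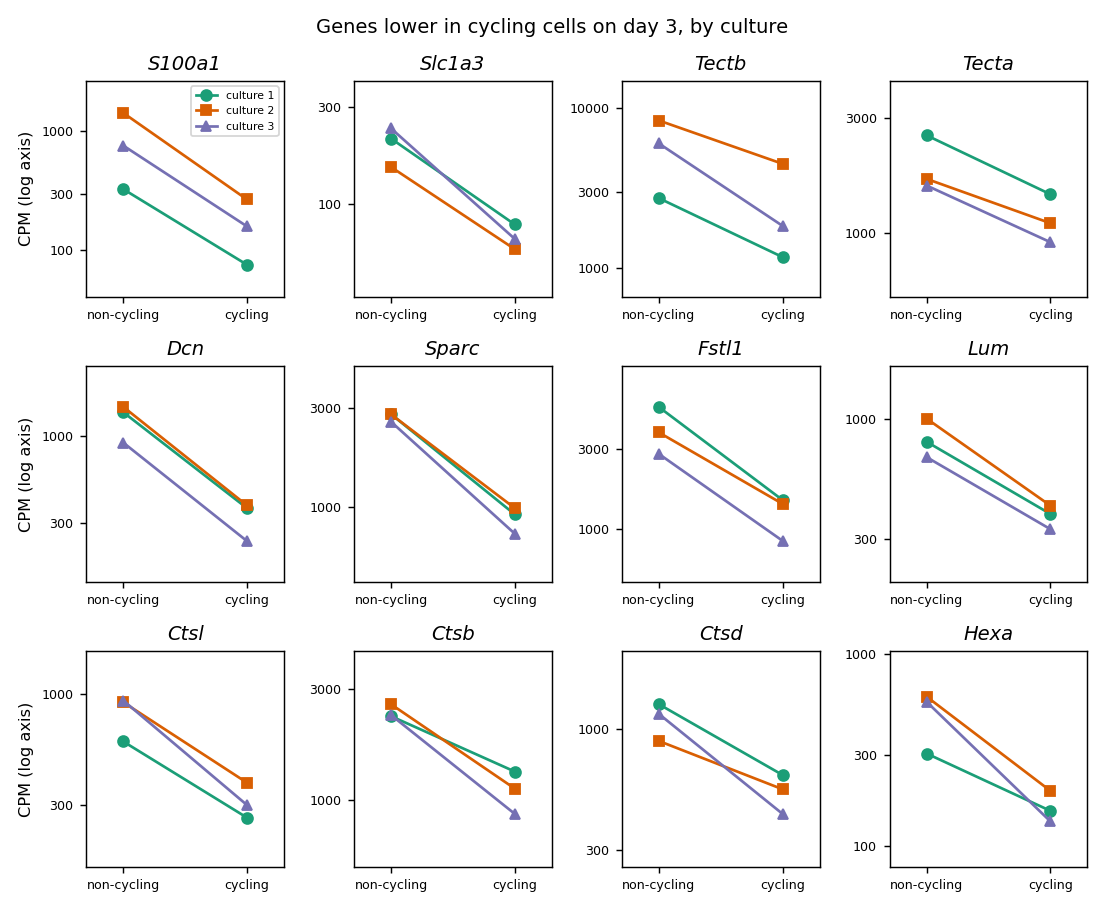
CPM (log axis) of 12 genes in the non-cycling and cycling sums of each day 3 culture; each line joins both sums of 1 culture. Top row, supporting cell and tectorial membrane genes; middle row, genes of secreted proteins; bottom row, lysosomal genes. Every line falls from non-cycling to cycling.

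Of the 33 tested collagen, laminin and integrin genes, 2 were called lower and 0 higher (8 lower and 1 higher by unadjusted p; 6 and 2 by DESeq2), against 0.719% of all genes called lower, and 9 had a fold change above 0. Sparc, 1 of the 2, which encodes the matrix protein osteonectin (chr11:55394500-55423183), was at 918, 984 and 740.01 CPM in cycling and 2810, 2805 and 2582 CPM in non-cycling cells (log2 fold change -1.64, SE 0.12, adjusted p = 0.0041). It kept its call under all 19 alternatives, and without the 2 cells with mesenchyme markers it was at -1.68. By the number of proliferation genes read, its mean level was 2758 CPM in cells with 0, 2113 with 1, 1802 with 2, 1026 with 3, 885 with 4, 1027 with 5 and 793 with 6. Fstl1, Igfbp5 and Lum, which also encode secreted proteins and are not on that list, were called lower too. Fstl1, a BMP and TGFβ modulator, was at 1481, 1405 and 846 CPM against 5309, 3746 and 2787 CPM (-1.66, SE 0.13, adjusted p = 0.00463). Igfbp5, an IGF-binding protein gene named after its values were seen, was at 95.9, 93.6 and 116.8 CPM against 354.5, 281.4 and 487.4 CPM (-1.84, SE 0.16, adjusted p = 0.00622). Without tdTomato-positive cells Fstl1 was at -1.01 (adjusted p = 0.136) and Igfbp5 at -1.74 (0.0516). Lum, which encodes lumican and was listed as a mesenchyme marker, was at 385.7, 419.2 and 331.3 CPM against 793, 999 and 680.002 CPM (-1.11, SE 0.13, adjusted p = 0.0144). It lost its call under 5 of 19 alternatives, among them the fits without culture 2 (adjusted p = 0.0813) or 3 (0.0927), and was at -0.35 (0.768) without tdTomato-positive cells. The summed level of the 10 mesenchyme markers was 326.2 to 421.8 CPM in cycling and 812 to 973 CPM in non-cycling sums, most of it Lum. Their part in the lower values was not tested beyond leaving out the 2 cells.

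The other fixed lists are read against the same 0.719% of all genes called lower. Dusp1, a phosphatase induced by stress and growth factors, was the called one of 19 immediate early genes (255.2, 123.04 and 138.1 CPM against 664.7, 599.9 and 304.1 CPM; -1.60, SE 0.24, adjusted p = 0.031). Cldn3, a tight junction claudin, was called lower among 28 junction genes (-0.93, SE 0.13, adjusted p = 0.0243), Anxa2 was 1 of 2 called lower among 24 wound-type genes, and Fstl1 and Ctgf were called lower among 15 YAP target genes. By unadjusted p, 0 genes were higher and 5 lower of the immediate early list, 1 and 13 of the junction list, 0 and 8 of the wound-type list and 1 and 5 of the YAP list. Dusp1 was not called without culture 1, 2 or 3, and Cldn3 was not called without culture 2 or 3 and was at -0.59 (adjusted p = 0.358) without tdTomato-positive cells. Anxa2 (-0.74, edgeR adjusted p = 0.0454) lost its call under 9 of 19 alternatives. It was at -0.49 (0.433) without tdTomato-positive cells. Epcam had a log2 fold change of -0.53, SE 0.12, adjusted p = 0.0825. Stmn2, a tubulin-binding protein gene listed as a neuron marker, was at 2.61, 6.35 and 5.06 CPM against 18.1, 48.7 and 23.1 CPM (-2.64, SE 0.45, adjusted p = 0.043). It lost its call under 8 of 19 alternatives and was at -1.20 (0.837) without tdTomato-positive cells. The summed level of the 8 neuron markers was 16.3 to 24.3 CPM in cycling and 27.3 to 95.8 CPM in non-cycling sums. That of 8 glia markers was 48.3 to 94.3 and 57.9 to 105.7 CPM, with most reads on Sox10 and with Cdh19 and Foxd3 among those at 0. The part of the neuron and glia markers in the result was not tested. Ptprc, Pecam1, Kdr and Hbb-bs, which mark immune, endothelial and red blood cells, were at 0 in all 6 sums. The full list of 10 such markers summed to 2.33 to 3.31 CPM in cycling and 2.02 to 2.22 CPM in non-cycling sums. Its most read gene, Cd68, had a read in 11.2% of the cycling and 10.5% of the non-cycling cells. No gene was called by edgeR among Wnt targets (12 tested; 1 higher and 1 lower by unadjusted p; 2 and 1 by DESeq2), ERK feedback genes (15; 1 and 6; 0 and 5), glycolysis and hypoxia genes (27; 1 and 4; 0 and 3), nuclear respiratory chain genes (47; 3 and 0; 2 and 0) or the integrated stress response (23; 5 and 1; 2 and 0).

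Smpdl3a, a lysosomal lipase-like phosphodiesterase gene, was among the 10 lowest genes, at 14.03, 16.5 and 22.7 CPM in cycling and 67.8, 114.3 and 111.2 CPM in non-cycling cells (log2 fold change -2.45, SE 0.24, adjusted p = 0.00926). Because several of the lower genes encode lysosomal enzymes, a list of 73 lysosomal genes was written after these values were seen, and its counts are a description. Of 71 tested, 18 were called lower and 0 higher (41 and 0 by unadjusted p; 35 and 0 by DESeq2), against 0.719% of all genes called lower. A fold change below 0 was found in 66 of the 71, with a median of -0.82, and in 6021 of all 14051 genes, with a median of 0.13. Lysosomes break down proteins, sugars and lipids taken up or recycled by the cell, and cathepsins are among their proteases. All 9 tested cathepsin genes had a fold change below 0 and 5 were called. Ctsl was at 262.9, 383.9 and 301.5 CPM against 599.7, 918 and 935 CPM (-1.36, SE 0.15, adjusted p = 0.0118). Ctsb was at 1329, 1123 and 875 CPM against 2297, 2584 and 2322 CPM (-1.13, SE 0.15, adjusted p = 0.0204). Ctsd was at 633.2, 549.7 and 430.7 CPM against 1275, 886 and 1158 CPM (-1.04, SE 0.17, adjusted p = 0.0377). The sides did not overlap in any of these 3. Hexa, a ganglioside-degrading hexosaminidase subunit, was at 153.4, 194.98 and 135.1 CPM against 304.8, 602.6 and 566.3 CPM (-1.56, SE 0.23, adjusted p = 0.0264), and Lamp1, a lysosomal membrane protein, had a log2 fold change of -0.90, SE 0.14, adjusted p = 0.0372. Of 19 genes of the vacuolar proton pump, 17 had a fold change below 0 and 1 was called, Atp6ap1. Ctsl was not called without culture 3 (-1.22, adjusted p = 0.0704), Ctsb without culture 2 (-1.09, 0.1) or 3 (-0.99, 0.162), Ctsd without culture 1 (-1.06, 0.0779), 2 (-1.21, 0.0637) or 3 (-0.85, 0.217), Hexa without culture 2 (0.116) or 3 (0.114) and Lamp1 without culture 2 (0.157) or 3 (0.26). Without the block, Ctsb (0.0606), Ctsd (0.102) and Lamp1 (0.103) were not called. Without tdTomato-positive cells, 1 of the 18 called genes, Tpp1, stayed called, and the 18 fold changes lay between -2.03 and -0.69.

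Many lysosomal genes carry the palindrome CACGTG, the core of the site bound by TFEB and related factors and also by Myc and Max, near their start. The windows of Ctsa, the gene of protective protein cathepsin A (chr2:164833523-164833822, plus strand), and of Ctsd (chr7:142387778-142388077, minus strand) show it in capitals.
Ctsa: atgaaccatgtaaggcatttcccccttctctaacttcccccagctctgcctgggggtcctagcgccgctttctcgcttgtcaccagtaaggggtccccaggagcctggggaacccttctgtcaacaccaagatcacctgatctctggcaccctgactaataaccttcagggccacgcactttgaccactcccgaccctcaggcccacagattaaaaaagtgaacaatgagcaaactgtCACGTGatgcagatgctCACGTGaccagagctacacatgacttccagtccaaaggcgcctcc
Ctsd: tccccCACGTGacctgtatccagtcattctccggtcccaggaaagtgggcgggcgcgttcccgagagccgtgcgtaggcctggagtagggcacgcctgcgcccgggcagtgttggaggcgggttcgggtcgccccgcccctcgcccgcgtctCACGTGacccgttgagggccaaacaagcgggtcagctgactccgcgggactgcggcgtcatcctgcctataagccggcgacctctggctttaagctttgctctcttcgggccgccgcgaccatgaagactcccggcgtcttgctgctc
CACGTG was found in 9 of the 15 called lower lysosomal genes with a window and in 18 of the 55 tested lysosomal genes with one, against 11.9% of the 10052 tested genes with a window. Of the 75 called lower genes with a window, 16 (21.3%) held it, and 9 of these 16 are the lysosomal genes just given. Some genes have more than 1 annotated start, and a second window of Ctsa holds no CACGTG.

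**Figure D4:**
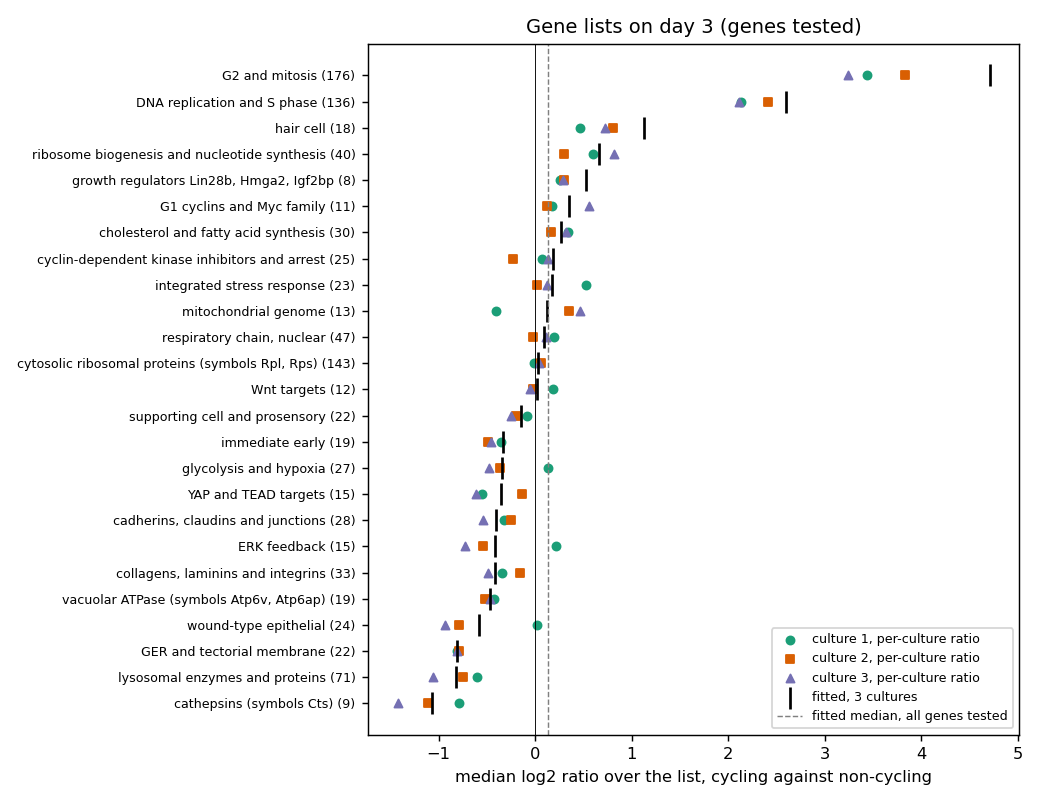
Median log2 ratio, cycling against non-cycling on day 3, over each gene list with at least 8 tested genes (number tested in brackets); symbols are the ratios of CPM plus 1 within each culture, black bars the fitted fold changes, and the dashed line the fitted median of all tested genes at 0.13. G2 and S phase lists stand at the top (4.71 and 2.60), and the GER, lysosomal and cathepsin lists, of which the last 2 were chosen after values were seen, at the bottom with culture values of -1.43 to -0.60.

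The same split was made in 5 cultures of day 7, which share no cells with day 3, with 28, 17, 62, 60 and 20 cycling and 8, 16, 8, 15 and 47 non-cycling cells. There 1.89% of 12782 genes were called, 1.42% higher and 0.477% lower. Of the genes called lower on day 3, 100 were tested on day 7, 98 had the same direction and 32 were called lower again. Among all genes outside the lists that were below 0 on day 3, 58.8% had the same direction and 1.11% were called. Of the 61 higher genes, 60 were tested, 57 had the same direction and 14 were called, against 70.5% and 0.776%. The median fold change of the 100 lower genes was -1.21 on day 3 and -0.88 on day 7. The share of genes called on day 7 fell to between 0.342 and 1.03% when 1 culture was left out, and was lowest without culture 5.

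Sparc had a log2 fold change on day 7 of -2.25, SE 0.26, adjusted p = 0.0113, S100a1 of -2.34, SE 0.37, adjusted p = 0.0285, Dcn of -1.34, SE 0.18, adjusted p = 0.018, Fstl1 of -0.87, SE 0.09, adjusted p = 0.00886 and Tecta of -0.67, SE 0.08, adjusted p = 0.0128. These genes were lower in cycling cells on both days. Tectb was at -1.84 on day 7 with a larger error (SE 0.77, adjusted p = 0.328). Of the GER list, 4 genes were called lower on day 7 and 18 of 21 were below 0. Of the lysosomal list, 12 were called lower and 60 of 71 were below 0. Over all genes, 0.477% were called lower on day 7, and 5189 of the 12541 tested on both days were below 0. Ctsb was at -0.82, SE 0.12, adjusted p = 0.0222 and Ctsd at -0.92, SE 0.16, adjusted p = 0.0372. The difference between the days was tested as an interaction. edgeR called 0 of 15531 genes, with 520 at an unadjusted p under 0.05, and DESeq2 called 65. Fstl1 had an unadjusted p of 0.000279 and an adjusted p of 0.433.

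**Figure D5:**
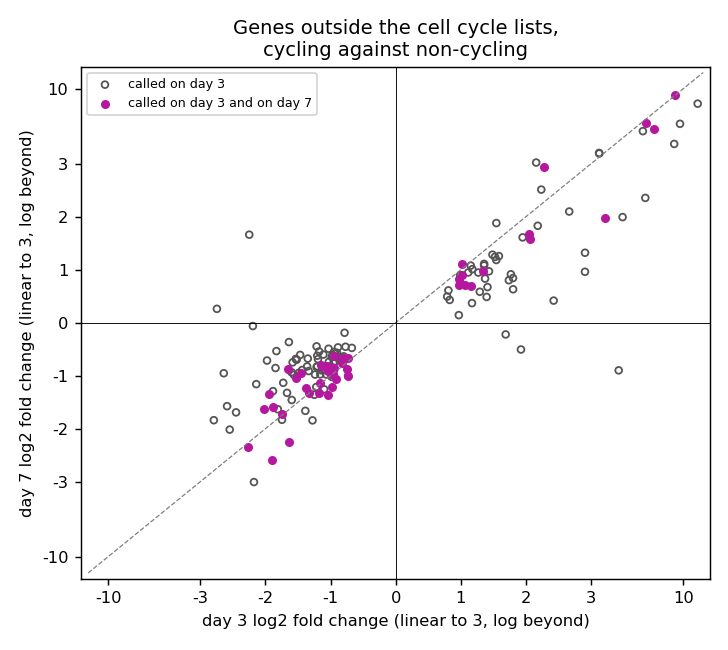
Fitted log2 fold change, cycling against non-cycling, on day 3 (horizontal) and day 7 (vertical) for the called day 3 genes outside the cell cycle lists that were tested on day 7; both axes are linear to 3 and logarithmic beyond, and the dashed line marks equal values. Of 100 lower genes 98 lie below 0 on day 7 and of 60 higher genes 57 lie above it; 32 and 14 of them were called on both days.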

How the data were processed

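The authors deposited expected counts (estimated reads per gene and cell, not normalized) of single-cell libraries. STAR 2.5.3a, RSEM 1.3.0 and the builds mm10 and GRCm38 are named in the submitters' processing notes. Of the deposited values above 0, 10.6% were not whole, and all were rounded. Coordinates are from GENCODE M21 (GRCm38) for the 93.2% of gene identifiers found there with the same version.

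Reads of kept day 3 cells (median 786775 per cell) were summed per side and culture. Genes passing filterByExpr were tested with edgeR 4.0.16 (R 4.3.3; TMM scaling, quasi-likelihood F-test, Benjamini-Hochberg adjustment over all genes, called under 0.05). CPM is TMM-scaled for genes, and unscaled for marker totals and for levels by number of proliferation genes read. SE is the fold change divided by the square root of F. The culture was a block because both sides come from the same culture, and deviations of both sides of a culture correlated at 0.289, 0.276 and 0.106. DESeq2 1.42.0 and limma 3.58.1 were alternatives. Per-cell measures were compared with exact two-sided sign permutations.

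Named genes are the 10 highest and 10 lowest called genes outside the cell cycle lists (same direction in 3 cultures, at least 20 CPM and a read in at least 20% of cells on the higher side, no predicted genes), 2 per list by smallest p, and 14 preset genes; the text gives those its groups turn on. The further genes outside this rule (Tpp1, Otog, Cst3, Clu, Fkbp9, Igfbp5, Bmp7, Rcc1, Alyref, Atp6ap1, Hexa, Lamp1 and the cathepsins) were chosen after their values were seen. A few genes are not reported here. The split, the members and the lists were chosen with earlier results of these data known. Overlapping or near-identical genes may share reads, since strand use is not given in the sources used here. Alternatives varied the block, scaling, low-count filter, tool, depth, cell limits, the rule and the cultures; 2 exclusions of cells and the left-out day 7 cultures were added after seeing the data.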

Additional observations from a re-analysis of the deposited data

How the results depend on the processing

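The direction of the called genes held more widely than their number. Of the genes called on day 3 outside the cell cycle lists, every tested one kept its direction under each of the 19 alternatives, except 1 of 100 lower genes without tdTomato-positive cells.

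Against 1.58% of genes called higher, 0.719% lower and 0.444% higher outside the lists, DESeq2 gave 6.16, 4.6 and 4.28%. limma-trend gave 2.74% higher and 1.09% higher outside. A split of 5 or more against 0 proliferation genes gave 0.945, 0.335 and 0.125%, a split of 3 or more against 0 to 2 gave 1.1% lower and 0.827% higher outside, and counting a gene as read from 10 reads gave 2.82, 1.55 and 1.29%. Cells thinned before summing gave 2.22% higher and 1.12% lower. Sides from thinned counts gave 1.11% lower and 0.931% higher outside. A mean CPM of at least 5 gave 2.87, 1.86 and 1.01%, and no filter on low counts gave 0.524% higher outside. Without the replicate block, 1.21% were higher, 0.214% lower and 0.233% higher outside, and 1.92% were called on day 7 against 1.89%. Leaving out 1 culture gave 0.681 to 1.11% higher, 0.0634 to 0.63% lower and 0.0284 to 0.191% higher outside on day 3, and 0.342 to 1.03% on day 7. For the difference of the days it gave 0 to 1 calls, where DESeq2 called 65.

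Without cells with a tdTomato read (8, 13 and 15 non-cycling cells left in the 3 cultures), edgeR called 0.316% higher, 0.0376% lower and 0 genes higher outside the lists, where 4.61% were higher at an unadjusted p under 0.05. The median fold change of the lower genes was then -1.07. The cause of these shifts was not tested. The share of cycling cells at a common depth was 62.5%. Reads are copies without molecular identifiers, and genes with few reads on a side have no reliable fold change.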

Other observations

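Genes of cholesterol and fatty acid synthesis gave no call on day 3 and some on day 7. On day 3, 22 of 30 genes had a fold change above 0 with a median log2 of 0.27, and 0 were called by edgeR (6 higher and 0 lower at an unadjusted p under 0.05; 2 and 0 by DESeq2). On day 7, all 30 were above 0 with a median of 0.84, and 4 were called higher. Over all genes, 8030 of 14051 were above 0 on day 3, with a median of 0.13. Of these 14051, 1238 were higher by unadjusted p and 865 by DESeq2. On day 7, 7352 of the 12541 genes tested on both days were above 0, with a median of 0.14. In all, 1.42% of the genes tested on day 7 were called higher. Idi1, an isopentenyl diphosphate isomerase gene, was at 0.91 on day 3 (edgeR adjusted p = 0.115) and 1.21 on day 7 (adjusted p = 0.0165). Fdps, which makes farnesyl diphosphate, was at 0.70 (adjusted p = 0.134) and 1.14 (adjusted p = 0.0137). edgeR called 0 genes for the difference between the days, with 520 at an unadjusted p under 0.05, and DESeq2 called 65.

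Cytosolic ribosomal protein genes had a median of 0.03 on day 3, with 81 above and 62 below 0, and of -0.24 on day 7, where all but 16 were below 0. Over all genes the day 7 median was 0.14, and 5189 of the 12541 genes tested on both days were below 0 on day 7. Rgs5, a G-protein regulator gene outside the naming rule and singled out after its values were seen, was called higher with reads in 4.61% of the cycling cells and in no non-cycling cell.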
